A study of Homo sapiens with 16 samples.

Results

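Weak domain boundaries shared by all digestion times were 1054 of the 5715 autosomal boundaries that Hi-C contact maps of K562 cells gave after 12 h of digestion. Each was a 20 kb bin at which an insulation score had a local minimum. The score of a bin was the log2 of the mean contact signal between the 10 bins before it and the 10 bins after it, divided by the chromosome's mean. Where the score is low, few contacts pass over the bin. The prominence of a minimum, its depth in log2 units below the lower of the peaks beside it, had to be 0.2 to 0.5 at 12 h. A minimum of prominence 0.2 or more also had to lie within 1 bin of it at 0.25, 1 and 3 h. The boundaries were thus chosen by their scores, prominences and presence at all times, which are described without a test.

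Hi-C ligates DNA ends that are close together in the nucleus and sequences the ligated pairs. In mammalian chromosomes it shows domains, stretches of DNA whose loci contact each other more often than loci beyond the domain's edges. The edges are the boundaries, many of which carry the DNA-binding protein CTCF, which halts the loop-forming complex cohesin. Shallow minima of an insulation score can be edges of sub-domains within a larger domain or edges that contacts often pass.

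K562 is an established human leukaemia cell line with a fusion of chromosomes 9 and 22. Per the labels, its cells were fixed with 2% formaldehyde and their chromatin was cut with the restriction enzyme HindIII for 0.25, 1, 3 or 12 h, with 2 replicates at each time and no other treatment named. The stated aim was to catch, with short digestion, the boundaries that the enzyme reaches most easily. Each replicate appears in a first sequencing run, deposited in 50 kb bins, and a second run, deposited in 20 kb bins, and the titles name the same replicates in both.

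The second run held 62777251 to 176412222 contacts per library and the first 8918994 to 20237350. Per replicate number, depth rose with digestion time. Contacts between the 1 Mb intervals of chromosomes 9 and 22 that hold the fusion of this line ranked 1 among all pairs of 1 Mb intervals of these chromosomes in all 16 files. The labels do not say whether replicates were separate cultures, so p-values measure the spread between these libraries. Neither a genome sequence nor a gene annotation of build hg19 was used here, so boundaries are named by their hg19 position, without genes or sequence.

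The other 12 h boundaries give the setting. Strong shared boundaries, with a prominence over 0.5 at 12 h and a boundary at every other time, numbered 3218. Weak boundaries not shared by all times numbered 873, and strong ones not shared numbered 570. Sharing went with prominence, which the rule largely sets, since a partner must itself reach a prominence of 0.2 at each time. At 12 h prominences of 0.2 to 0.3, 43.3% of boundaries had a partner at all times, against 59.1% at 0.3 to 0.4, 68.3% at 0.4 to 0.5 and 90.2% at 1 or more.

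The weak shared boundaries were shallow minima with scores somewhat below the chromosome mean. Their median prominence was 0.41, 0.39 and 0.39 at 0.25, 1 and 3 h and 0.34 at 12 h, the time whose upper limit of 0.5 the rule imposed. At 0.25 h 242 of them had a prominence over 0.5, as did 216 at 1 h and 228 at 3 h, and the median ratio of a boundary's prominence to its 12 h value was 1.17, 1.14 and 1.13. The median score was -0.23, -0.23, -0.22 and -0.21 at the 4 times in the same order, against -0.63 for strong shared boundaries at 12 h. A score below 0, fewer crossing contacts than the chromosome mean, was found at 874 of the 1054 (82.9%) at 12 h. The share was 82.5% of weak boundaries not shared by all times and 54.7% of all autosomal bins, which were not chosen as minima. The other weak shared boundaries lay in regions where contacts crossed more often than average.

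**Figure D1:**
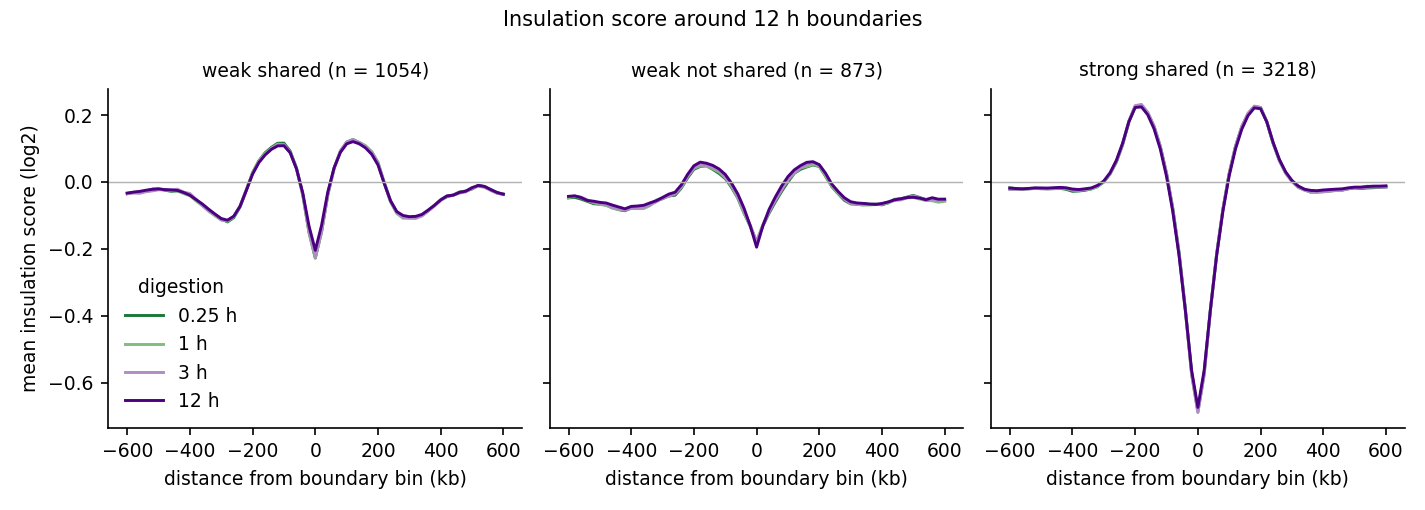
Mean insulation score (log2, vertical axis) by distance from the boundary bin (kb, horizontal axis) for weak shared, weak not shared and strong shared 12 h boundaries, with 1 line per digestion time. At weak shared boundaries the mean fell to -0.23 at 0.25 h and -0.20 at 12 h, between shoulders of 0.12 and 0.11 at 100 kb downstream.

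The profile around weak shared boundaries was narrow. The mean score at 12 h was -0.20 at the boundary, 0.11 at 100 kb on either side and 0.024 and 0.051 at 200 kb upstream and downstream. It fell below 0 again at 400 kb, to -0.040 upstream and -0.054 downstream. These means come from the values that defined the minima and only describe their shape.

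The rule allowed a shift of at most 1 bin between times, and within it the position of the minimum varied. Of the 1054, 741 had their 0.25 h minimum in the same 20 kb bin as at 12 h, 730 had the 1 h minimum there and 772 the 3 h minimum. All 3 shorter times had the 12 h bin at 518 boundaries, 49.1%. The remainder lay 1 bin to one side at some time, with 172 upstream and 141 downstream at 0.25 h.

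The limits of the rule cut through a continuous range of prominences. Just above the lower limit were chr12:6140001-6160000 and chr2:27160001-27180000, both with a 12 h prominence of 0.2003. Outside it, 93 minima of prominence 0.15 to 0.2 were also shared by all times, the nearest being chr5:112680001-112700000 and chr1:67440001-67460000 at 0.198 and 0.197. Just below the upper limit were chr22:43240001-43260000 at 0.4996 and chr13:114100001-114120000 at 0.4993. The nearest boundaries above it were chr8:56380001-56400000 at 0.5003 and chr14:74180001-74200000 at 0.5005. Several of these minima lay above the chromosome mean: chr2:27160001-27180000 had a score of 0.41 at 12 h.

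Most of the boundaries were minima in single libraries, the same libraries whose sums chose them. High shares are thus largely set by the rule and are not separate evidence. For weak boundaries not shared by all times the shares ran from 41.0% in 0.25 h replicate 2 to 76.9% in 12 h replicate 1. Replicate 1 alone gave a minimum within 1 bin of 973, 980, 977 and 981 of the 1054 boundaries at 0.25, 1, 3 and 12 h. Replicate 2, the shallower library at each time, gave 873, 922, 953 and 963. The lowest number came from the library with the fewest contacts, 0.25 h replicate 2, and the highest from the deepest, 12 h replicate 1. Between them the numbers did not follow depth, since 12 h replicate 2, second in contacts, gave fewer than the 0.25 h and 1 h libraries of replicate 1. All 8 libraries gave the minimum alone at 574 boundaries, 7 libraries did at 272, and the lowest number was 3 libraries, at 8 boundaries. The SD over boundaries of the score difference between replicates was 0.14, 0.12, 0.10 and 0.078 at the 4 times, falling as depth rose.

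**Figure D2:**
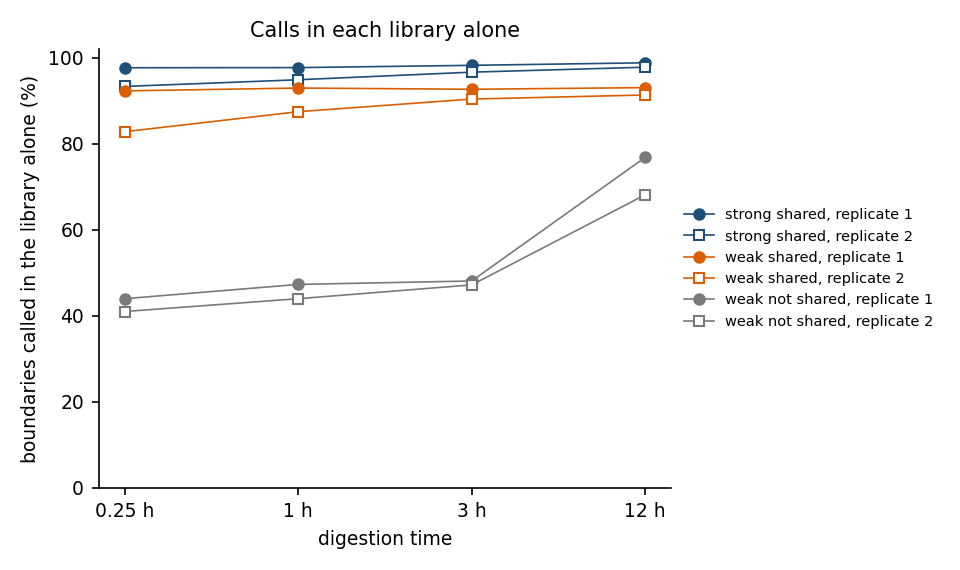
Percentage of the boundaries of each class (vertical axis) for which a library alone gave a minimum within 1 bin, by digestion time (horizontal axis), with replicate 1 filled and replicate 2 open. Weak shared boundaries ran from 82.8% in 0.25 h replicate 2 to 93.1% in 12 h replicate 1, below strong shared boundaries in every library. Each library was part of a sum that chose the boundaries.

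Chromosomes differed in how many weak shared boundaries they held. Over all autosomes there were 4.08 per 10 Mb of scored sequence. Chromosome 22 had most, 6.11 per 10 Mb (19 boundaries), followed by chromosome 17 with 5.82 (43) and chromosome 20 with 5.51 (32). Fewest lay on chromosome 21, with 2.36 per 10 Mb (8 boundaries), then chromosome 18 with 2.84 (21) and chromosome 13 with 2.86 (27). The numbers on the small chromosomes rest on few boundaries. Of all 12 h boundaries, weak shared ones made up 19.8%, 20% and 20.9% on chromosomes 22, 17 and 20, beside 18.4% over all autosomes. On chromosomes 21, 18 and 13 they made up 10.5%, 14.6% and 15.5%. Depth also differed, with a median of 553, 775 and 935 contacts to other bins on chromosomes 22, 17 and 20. Chromosomes 21, 18 and 13 had 1592, 1298 and 1074, while chromosome 19, with the fewest at 514, had 4.11 boundaries per 10 Mb. The part of depth in these densities was not tested.

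A strong shared boundary lay within 200 kb of 21.3% of weak shared boundaries, beside 46.8% of all other scored autosomal bins. Bins on the slope of a strong minimum cannot be minima themselves, so a share below that of all bins is largely set by the rule. Among boundaries the share was 11.1% for weak ones not shared by all times. Another strong one lay that near to 1.86% of strong shared boundaries. Their median distance to the nearest strong shared boundary was 300 kb, and for 720 of the 1054, 68.3%, it was at most 400 kb. Over all other scored autosomal bins, those that are no strong shared boundary, the median was 220 kb and the share within 400 kb 69.4%. These shares describe the spacing and were not tested. For weak boundaries not shared by all times the median distance was 460 kb, and for strong shared boundaries it was 400 kb to the next strong one. The interval between the strong shared boundaries on each side of a weak shared boundary had a median length of 1000 kb. Of 3196 intervals between neighbouring strong shared boundaries, 686 held 1 weak shared boundary, 149 held 2 and 2344 held none. Median lengths of these 3 classes of interval were 820, 1360 and 460 kb. The score reads contacts up to 400 kb apart, so minima that lie nearer than that share part of their signal.

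Reads that the rule did not use gave a shallower dip at weak than at strong shared boundaries. In the first run the crossing signal was taken in a square of 4 bins of 50 kb to each side and compared with the same squares centred 250 kb away on both sides, as a log2 difference. That square spans the same distance as the square of the score, whose prominence chose the boundaries and divided weak from strong. A dip, and its order between the classes, thus follows in large part from the rule. The first-run difference could be measured for 993 of the 1054 boundaries. The median over them was -0.12 and -0.11 in the 0.25 h libraries (replicates 1 and 2), -0.13 and -0.11 at 1 h, -0.13 and -0.11 at 3 h, then -0.11 and -0.096 at 12 h. All 8 libraries thus had a median below 0, from -0.13 to -0.096, against -0.80 to -0.74 at strong shared boundaries and 0.023 to 0.026 over all autosomal 50 kb bins. Weak boundaries not shared by all times had medians of -0.15 to -0.12, so a dip of this size was not particular to the shared ones.

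Fitted over all 49427 bins with limma (all 4 times in a single fit, the mean of the time means against 0, Benjamini-Hochberg adjusted p under 0.05), the first-run crossing signal was lower at 446 of the 993, 44.9%, where 32.8% of all bins were called lower. It was higher at 225, 22.7%, where 36.2% of all bins were. Strong shared boundaries were called lower at 90.1% and higher at 2.29%. Weak boundaries not shared by all times were close to the shared ones in the lower direction, at 44.1%, and were called higher at 11.7%. The first run carries the same replicate names, so it is other reads but may not be other libraries.

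**Figure D3:**
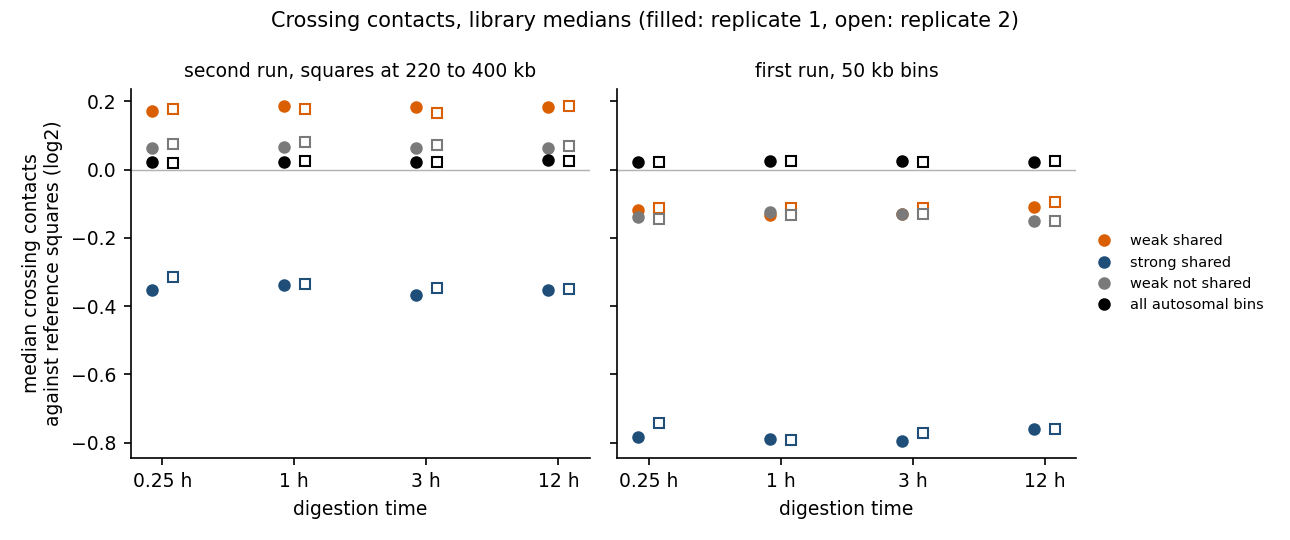
Library medians of the crossing contacts against reference squares (log2, vertical axis) by digestion time, for outer squares of the second run (left) and 50 kb bins of the first run (right), with colours for the classes of boundary and for all autosomal bins. Weak shared boundaries lay above 0 in the outer squares (0.16 to 0.19) and below 0 in the first run (-0.13 to -0.096), while strong shared boundaries lay below 0 in both. Weak boundaries not shared by all times had the same signs (0.062 to 0.081 and -0.15 to -0.12).

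The deepest first-run dip was at chr6:31460001-31480000. Its values were -1.64 and -1.66 at 0.25 h, -1.83 and -2.48 at 1 h, -1.84 and -1.34 at 3 h, then -1.09 and -0.99 at 12 h. Every library was below 0, and the fitted mean was -1.61 (SE 0.10, limma adjusted p = 2.83e-09). The next were chr5:140940001-140960000 at -1.55 (SE 0.072) and chr1:27220001-27240000 at -1.46 (SE 0.097), also below 0 in every library. These dips rested on few contacts: the first-run square over chr6:31460001-31480000 held 8 to 54 whole contacts per library, that over chr5:140940001-140960000 19 to 75, and that over chr1:27220001-27240000 10 to 80. With reference squares 7 bins away instead of 5 the fitted means were -1.05, -0.94 and -0.66 in the same order, still called.

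The opposite sign, more crossing contacts than in the squares beside it, was largest at chr20:46020001-46040000. There the first-run values were 1.65 and 1.59 at 0.25 h, 1.53 and 1.37 at 1 h, 1.11 and 1.81 at 3 h, then 1.74 and 1.66 at 12 h, all above 0. The fitted mean was 1.56 (SE 0.10, limma adjusted p = 3.98e-09). It was followed by chr14:68040001-68060000 at 1.53 (SE 0.078) and chr11:125000001-125020000 at 1.15 (SE 0.073). At each of the 3 the signal was above that of the reference square upstream and of the one downstream in all 8 libraries. Here too contacts were few: at chr20:46020001-46040000 the square held 45 to 157 whole contacts per library and its reference squares 10 to 51 and 11 to 31. With reference squares 7 bins away the fitted mean there was 0.28 (limma adjusted p = 0.033), and at the other two it was 0.66 and 0.39.

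The sign of the first-run value went with nearby strong boundaries. Of the 334 weak shared boundaries with no strong shared boundary within 400 kb, 305 were measured in the first run, 69.8% were called lower and 3.28% higher, with a median of -0.26. With a strong boundary within 400 kb on 1 side (420 measured) 41.0% were called lower and 22.1% higher, with a median of -0.094. With strong boundaries on both sides (268 measured) 22.8% were called lower and 45.5% higher, and the median was 0.12. The reference squares, centred 250 kb away, can hold such a strong boundary, and how far this sets the sign was not tested. By 12 h prominence the first-run median moved from -0.069 at 0.2 to 0.3 to -0.14 at 0.3 to 0.4 and -0.20 at 0.4 to 0.5. Since both read the same distance, this order too follows in large part from the rule.

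Farther out, crossing contacts at weak shared boundaries were more often above than below those of the squares beside them. For the outer crossing signal, bins 11 to 20 before the boundary were set against bins 11 to 20 after it, pairs that the score does not use, and compared with the same squares centred 420 kb to each side. Library medians over the 977 boundaries that could be measured were 0.17 and 0.18 at 0.25 h, 0.19 and 0.18 at 1 h, 0.18 and 0.16 at 3 h, then 0.18 and 0.19 at 12 h. In all 8 libraries the median was above 0, whereas strong shared boundaries had medians of -0.37 to -0.31 and all autosomal bins 0.020 to 0.027. Weak boundaries not shared by all times were also above 0, at 0.062 to 0.081.

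In the limma fit over 120914 bins, the outer signal was higher at 529 of the 977, 54.1%, beside 44.6% of all bins. It was lower at 347, 35.5%, beside 42% of all bins. Strong shared boundaries showed the reverse split, with 31.1% called higher and 59.0% lower, and weak boundaries not shared by all times had 46.0% higher and 35.3% lower. Most bins of the genome are called in this fit, so the split between directions and the medians carry more than the number called. By 12 h prominence the outer median moved from 0.049 at 0.2 to 0.3 to 0.20 at 0.3 to 0.4 and 0.25 at 0.4 to 0.5. It thus rose where the first-run median fell.

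The highest outer value was at chr9:123740001-123760000. It was 2.64 and 2.61 at 0.25 h, 2.57 and 2.93 at 1 h, 2.65 and 2.94 at 3 h, then 2.84 and 2.96 at 12 h, with a fitted mean of 2.77 (SE 0.050, limma adjusted p = 2.24e-11). Next came chr1:233940001-233960000 at 2.59 (SE 0.036) and chr20:21200001-21220000 at 2.51 (SE 0.049). The lowest value belonged to chr9:123360001-123380000, with -2.18 and -2.35 at 0.25 h, -2.45 and -2.37 at 1 h, -2.05 and -2.69 at 3 h, then -2.19 and -2.54 at 12 h (fitted mean -2.35, SE 0.070, limma adjusted p = 2.42e-10). These extremes of opposite sign thus lay on the same stretch of chromosome 9. They lie little less than 420 kb apart, so a reference square of each is centred close to the other and overlaps its square. Both values are therefore partly the same contrast read from either end and are not separate extremes. On the low side chr10:77000001-77020000 at -2.33 (SE 0.063) and chr6:51900001-51920000 at -2.25 (SE 0.068) followed.

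Both measures existed for 956 weak shared boundaries. A dip in both, called lower in the first run and in the outer squares, was found at 201 of them, 21%, beside 20.7% of all autosomal bins measured in both and 56.4% of strong shared boundaries. A first-run dip with a higher outer signal was found at 180, 18.8%, beside 8.64% of all bins and 25.1% of strong shared boundaries. Called higher in both were 152, 15.9% beside 21.3% of all bins, and 51 were higher in the first run and lower in the outer squares, 5.33% beside 10.8%. The share with a dip in both was thus near that of all bins.

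**Figure D4:**
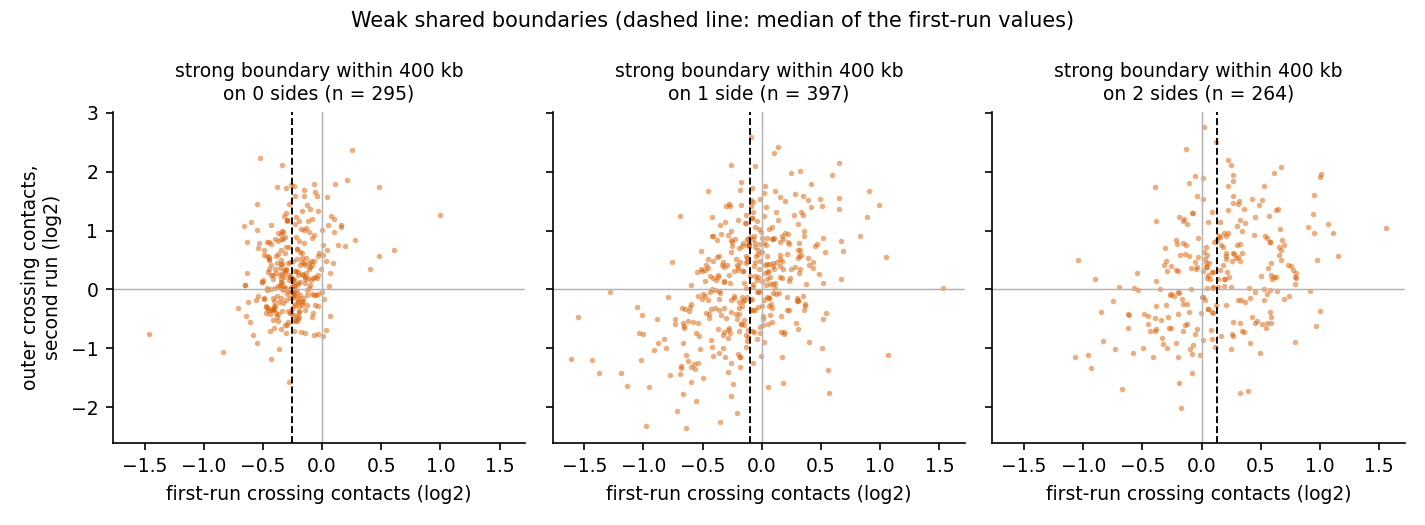
Outer crossing contacts of the second run (log2, vertical axis) against first-run crossing contacts (log2, horizontal axis) at the 956 weak shared boundaries measured in both, split by the number of sides with a strong shared boundary within 400 kb. The dashed first-run median moves from below 0 with no strong boundary near to above 0 with strong boundaries on both sides, while outer values spread on either side of 0 in all 3 panels.

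No weak shared boundary passed the limma test for a change of either crossing measure with digestion time. For the outer signal at 0.25 h against 12 h, 0 of 977 were called, as were 0% of all bins, and 59 (6.04%) had an unadjusted p under 0.05, beside 6.45% of all bins. For the first run, 0 of 993 were called, beside 0% of all bins, and 63 (6.34%) had an unadjusted p under 0.05, beside 5.86% of all bins. The smallest p for the outer signal was at chr17:72960001-72980000, where values were 0.22 and 0.017 at 0.25 h, -0.24 and -0.46 at 1 h, -0.23 and -0.83 at 3 h, then -0.88 and -0.82 at 12 h. Its 0.25 h and 12 h libraries did not overlap, but the difference of 0.97 (SE 0.20) had an adjusted p of 0.638 over all bins by limma, and 0 of 13 alternative settings brought it past 0.05.

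In the first run the smallest p was at chr17:1780001-1800000, with 0.48 and 0.55 at 0.25 h, -0.20 and -0.40 at 1 h, 0.35 and 0.11 at 3 h, then -0.46 and -0.73 at 12 h. The difference was 1.11 (SE 0.21, limma adjusted p = 0.462), again without overlap between 0.25 h and 12 h, on 8 to 31 whole contacts per library in its square. A call that was not made does not show that these boundaries were alike at all times, since each time had 2 libraries.

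Coverage, how many contacts a bin makes in all, is removed by balancing and was recovered from the deposited signal. A weak shared boundary bin made a median of 1072 and 551.5 contacts with other bins at 0.25 h, 1160 and 766.5 at 1 h, 1425 and 1078 at 3 h, then 1945 and 1706 at 12 h in replicates 1 and 2. Local coverage was the log2 of this number over the mean of the bins 60 to 200 kb away on both sides. Its median over the 1049 boundaries whose bin was present in all 8 files was -0.18 and -0.20 at 0.25 h, -0.18 and -0.19 at 1 h, -0.18 and -0.19 at 3 h, then -0.15 and -0.15 at 12 h. All autosomal bins had medians of -0.082 to -0.043, so boundary bins were somewhat poorer in contacts than their flanks in every library.

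Coverage was lower than in the flanks at 610 of the 1049, 58.2%, beside 51.6% of all bins, and higher at 400, 38.1%, beside 44.3% of all bins (limma, adjusted p under 0.05). Strong shared boundaries had 54.8% lower and 41.4% higher, and weak boundaries not shared by all times 58.7% and 37.5%. A drop of 1 log2 unit or more was found at 16.9% of weak shared boundaries, 16.5% of strong shared ones and 13.1% of all bins. Nearly every bin differs from its flanks in this fit. With contacts to other chromosomes only, 63.3% of weak and 66.7% of strong shared boundaries were lower, beside 49.3% of all bins, and the fitted medians went from -0.17 to -0.35 and from -0.13 to -0.40. The order of the 2 classes thus turned with the contacts used. Among bins with a mean of 500 contacts or more the median at weak shared boundaries was -0.067, beside 0.013 over all bins.

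The poorest bin was chr6:80160001-80180000. It made 101 and 49 contacts with other bins at 0.25 h, 103 and 84 at 1 h, 128 and 118 at 3 h, then 195 and 212 at 12 h, and no contacts inside the bin in any library. Its local coverage was -3.93 (SE 0.056, limma adjusted p = 1.48e-31), with every library between -4.23 and -3.46. After it came chr8:126440001-126460000 at -3.09 (SE 0.044) and chr15:39380001-39400000 at -3.01 (SE 0.042), which had no contacts inside the bin either.

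At the other end stood chr3:169800001-169820000. It made 5476 and 3116 contacts with other bins at 0.25 h, 5835 and 3678 at 1 h, 6949 and 5357 at 3 h, then 8129 and 6927 at 12 h, a local coverage of 1.92 (SE 0.011, limma adjusted p = 8.60e-40). It was followed by chr19:11980001-12000000 at 1.64 (SE 0.015; 1.02 with flanks of bins 2 to 5) and chr4:26720001-26740000 at 1.53 (SE 0.011). Weak shared boundaries therefore included bins both far poorer and far richer in contacts than their surroundings.

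Coverage moved with digestion time at many weak shared boundaries, in about the same shares as over all bins. At 0.25 h against 12 h it was lower at 302 of 1049, 28.8%, beside 24.9% of all bins, and higher at 185, 17.6%, beside 17.4% (limma, adjusted p under 0.05). Strong shared boundaries had 26.9% lower and 18.5% higher. The changes were small, with a median size of 0.21 log2 units among those called, and 11 of the 487 reached 0.5. Using only contacts with other chromosomes left 4 called, 0.381% beside 0.146% of all bins. The median size of the difference over all 1049 was then 0.12, as in the fit of all contacts, and the signed median 0.00089 instead of -0.046. Contacts with other chromosomes were few, with library medians of 69 to 233.5 per weak shared boundary bin. The equal size therefore does not show that the same change persisted. Leaving out 12 h replicate 1 or 2 gave a median difference of -0.044 or -0.041. Fewer were then called at the boundaries and over all bins alike. Depth rose with digestion time, and its part in these counts was not tested.

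At 1 h coverage was lower than at 12 h at 221, beside 17.8% of all bins, and higher at 143, beside 13.7%, which is 21.1% and 13.6% of the 1049. At 3 h it was lower at 160, beside 12.3% of all bins, and higher at 103, beside 10.4%, or 15.3% and 9.82% of the 1049. The 3 comparisons share the 12 h libraries, so they are not separate evidence. Without a library of the time compared, or without a 12 h library, fewer boundaries were called in both directions at 1 h and at 3 h. Those fits leave 1 library at the time concerned. Shares over all bins are not given for them, so the falls are not read as particular to these boundaries.

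The largest fall in coverage at 0.25 h was at chr22:18260001-18280000. It made 455 and 239 contacts with other bins at 0.25 h, 582 and 383 at 1 h, 768 and 595 at 3 h, then 1513 and 1374 at 12 h. Its local coverage was -1.10 and -1.10 at 0.25 h, -0.90 and -0.89 at 1 h, -0.80 and -0.79 at 3 h, then -0.42 and -0.40 at 12 h. No library of 0.25 h reached one of 12 h, and the difference was -0.69 (SE 0.060, limma adjusted p = 2.74e-09), past 0.05 in all 14 alternative settings, contacts with other chromosomes included. Contacts with other chromosomes here include those of chromosome 22 with chromosome 9, to which it is fused in this line. Their part in this call was not tested. The next falls were at chr22:24560001-24580000, -0.67 (SE 0.14), and chr11:119200001-119220000, -0.64 (SE 0.10), and neither was called from contacts with other chromosomes.

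Coverage at chr10:22600001-22620000 was higher at the shortest time. Its local coverage was 1.11 and 1.27 at 0.25 h, 1.02 and 1.01 at 1 h, 1.05 and 1.00 at 3 h, then 0.72 and 0.68 at 12 h. No 12 h library reached any other, and 0.25 h exceeded 12 h by 0.49 (SE 0.039, limma adjusted p = 7.78e-10). The next rises were at chr3:190140001-190160000, 0.48 (SE 0.098), and chr12:124200001-124220000, 0.46 (SE 0.080; 0.28 without 0.25 h replicate 2). None of these 3 rises was called from contacts with other chromosomes.

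Contacts inside the 20 kb bin, which the score leaves out, are joined ends from neighbouring fragments of the same bin. They made up a median of 6.05% and 6.20% of a weak shared boundary bin's contacts at 0.25 h, 5.64% and 5.54% at 1 h, 5.33% and 5.49% at 3 h, then 3.54% and 3.51% at 12 h. Over all autosomal bins the 0.25 h libraries had medians of 7.35% and 7.84%, the 12 h libraries 4.29% and 4.22%. Both 12 h libraries were below every other at the boundaries, and at 0.25 h and 12 h boundary bins were below all bins.

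Local self-contact share, the log2 share minus the mean of the flanks, had a median near 0 at weak shared boundaries, from -0.036 to 0.074 over the 8 libraries, where all autosomal bins had 0.31 to 0.34. It was lower than the flanks at 461 of 1049, 43.9%, beside 35.8% of all bins, and higher at 472, 45%, beside 54.5% (limma, adjusted p under 0.05). Strong shared boundaries had 42.2% lower and 47.2% higher. The level depends on bins with few contacts: a mean of fewer than 10 contacts inside the bin was found at 18.4% of weak shared boundaries, beside 17% of strong shared ones and 13.1% of all bins. Among bins with a mean of 500 contacts or more the fitted median was 0.21 instead of -0.0061, with 38.2% lower and 50.7% higher, beside a median of 0.45 over all such bins. No contact inside the bin was counted in any library at 43 of the 1049, 4.1%, against 2.38% of all bins, and all 43 are among the 461 lower calls.

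The highest self-contact share against its flanks was at chr5:133480001-133500000. It held 1208 and 762 contacts inside the bin at 0.25 h, 1251 and 778 at 1 h, 1355 and 1005 at 3 h, then 1045 and 871 at 12 h. Its local self-contact share was 3.18 (SE 0.046, limma adjusted p = 1.27e-13), with each library between 2.82 and 3.52. The next were chr1:9300001-9320000 at 3.16 (SE 0.059) and chr3:169800001-169820000, also the richest in coverage, at 2.98 (SE 0.031). The lowest were chr7:137580001-137600000, with no contact inside the bin in any library beside 457 to 1705 with other bins, chr12:106100001-106120000, with 0 to 3, and chr8:42660001-42680000, with 0 to 2. At such counts the fitted difference depends on the pseudocount of 0.5, so none is given.

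The self-contact share also moved with time, at 0.25 h in about the shares seen over all bins. At 0.25 h against 12 h it was lower at 101 of 1049, 9.63%, beside 9.27% of all bins, and higher at 159, 15.2%, beside 15.5% (limma, adjusted p under 0.05). At 1 h 17 were lower, 1.62% beside 0.961% of all bins, and 41 higher, 3.91% beside 3.59%. At 3 h 1 was lower, 0.095% beside 0.00467% of all bins, and 3 were higher, 0.286% beside 0.124%, numbers too small to compare. The 260 calls at 0.25 h became fewer without 0.25 h replicate 2 or without either 12 h library. With single libraries left out, the 58 calls at 1 h and the 4 at 3 h moved both down and up. All bins are not set beside these fits, so the moves are not read as particular to the boundaries.

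Chr22:19460001-19480000 showed the change with most contacts behind it among the named boundaries. It held 464 and 508 contacts inside the bin at 0.25 h, 386 and 282 at 1 h, 363 and 337 at 3 h, then 106 and 100 at 12 h, while its contacts with other bins rose from 1346 and 671 at 0.25 h to 3207 and 2673 at 12 h. Its local self-contact share was 1.87 and 2.50 at 0.25 h, 1.57 and 1.81 at 1 h, 1.26 and 1.54 at 3 h, then -0.45 and -0.27 at 12 h. All 12 h values were below those of every shorter time, and the difference between 0.25 h and 12 h was 2.54 (SE 0.20, limma adjusted p = 0.000657).

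At chr16:17600001-17620000 the share was also higher at 0.25 h, with 59 and 83 contacts inside the bin against 16 and 17 at 12 h, a difference of 2.61 (SE 0.41, limma adjusted p = 0.00231). The largest fitted rise, 2.62 (SE 0.50, limma adjusted p = 0.00516) at chr7:134640001-134660000, rested on 8 and 3 contacts at 0.25 h and 2 and 0 at 12 h, and was 1.60 without 12 h replicate 2. The largest fall, -2.63 (SE 0.53, limma adjusted p = 0.00629) at chr3:52240001-52260000, rested on 1 and 1 contacts inside the bin at 0.25 h and 13 and 13 at 12 h, and it lost the call without 12 h replicate 2. At these counts the fitted size depends on the pseudocount of 0.5. Next lower were chr2:169200001-169220000, with 0 and 0 contacts against 3 and 2 and a call in 8 of 13 alternative settings, and chr12:104540001-104560000, with 0 and 0 against 2 and 2, too few for a fold, and no call without 12 h replicate 2.

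**Figure D5:**
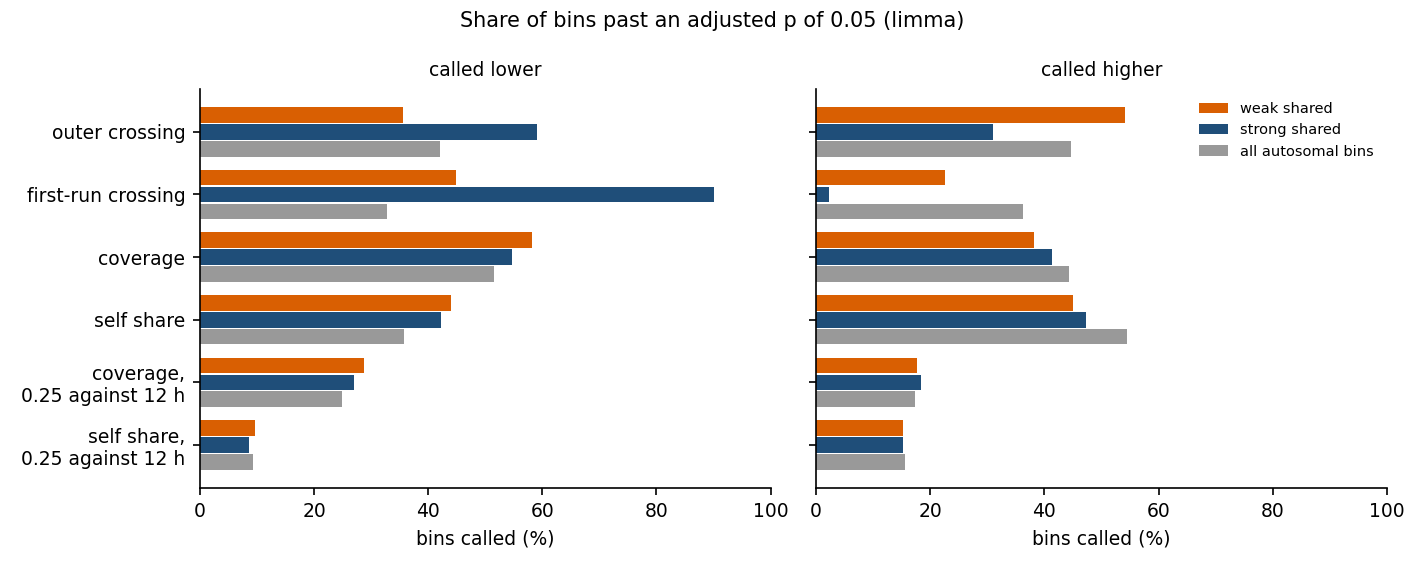
Percentage of bins past a limma adjusted p of 0.05 (horizontal axis) in the lower (left) and higher (right) direction for 6 comparisons, with bars for weak shared boundaries, strong shared boundaries and all autosomal bins. Weak shared boundaries differ from strong ones most in crossing contacts (first run lower 44.9% against 90.1%), and their bars for 0.25 h against 12 h lie near those of all bins.

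Contacts with other chromosomes showed whether both sides of a boundary had the same partners. Gene-rich chromosomes 17, 19 and 22 and gene-poor chromosomes 4, 13 and 18 served as partners, since active and inactive chromatin tend to prefer different ones. Chromosome 22 is fused with chromosome 9 in this line, so contacts counted between them can lie within a joined chromosome. The part of this in the steps on chromosomes 9 and 22 was not tested. The log2 of contacts with the former over contacts with the latter was taken for the 200 kb downstream minus the 200 kb upstream. It passed the test at 92 of 1049 weak shared boundaries, 8.77%, beside 10.6% of all bins (limma, adjusted p under 0.05). Strong shared boundaries had 26.6%. The number was lower without 1 h replicate 2, either 3 h library or either 12 h library, and sides of 5 bins instead of 10 gave 7. How many of all bins passed in these fits is not given, so the falls are not read as particular to the boundaries.

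Both sides of a weak shared boundary had partners of the same kind about as often as those of any bin. With the contacts of all libraries added, both sides were above the chromosome's median preference at 578 of 1054, both were below it at 376, and the sides were opposite at 100, 9.49%. All autosomal bins had opposite sides at 9.04%, and strong shared boundaries at 15.1%. Both sides were above the median at 54.8% of weak shared boundaries, 57.0% of strong shared ones, 38.0% of weak ones not shared by all times and 45.1% of all bins.

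The largest steps were upward at chr2:91960001-91980000, with 2.20 and 2.43 at 0.25 h, 1.56 and 1.48 at 1 h, 1.60 and 1.29 at 3 h, then 0.97 and 1.35 at 12 h (fitted mean 1.61, SE 0.092, limma adjusted p = 6.14e-08). Every library was above 0. Close behind was chr7:100460001-100480000 at 1.61 (SE 0.11), then chr11:3680001-3700000 at 0.76 (SE 0.15). The last was 2.43 in 0.25 h replicate 2 and 0.24 to 0.93 in the other libraries, and it lost its call with sides of 5 bins (limma adjusted p = 0.0789). Downward, chr9:123740001-123760000, which also had the highest outer crossing signal, led with -1.02 and -1.14 at 0.25 h, -0.65 and -0.53 at 1 h, -0.64 and -1.0 at 3 h, then -0.74 and -0.69 at 12 h (fitted mean -0.80, SE 0.081, limma adjusted p = 3.62e-05). It was below 0 in every library, as was chr5:150180001-150200000 at -0.66 (SE 0.096). The step at chr2:220400001-220420000, -0.59 (SE 0.15, limma adjusted p = 0.0288), was above 0 in 3 h replicate 2 and kept its call in 6 of 12 alternative settings.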

How the data were processed

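Hi-C contact maps of K562 cells were analysed from 16 deposited files, 1 per replicate, digestion time and sequencing run. Each lists pairs of bins with a balanced signal, scaled by the authors so that every bin has the same total. The submitters' processing notes name HiC-Pro 2.11.1, Bowtie2 2.3.4.1 and build hg19, without their roles. Bin numbers were placed on hg19 by the total number of bins (154795 of 20 kb, 61928 of 50 kb).

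Whole contacts were recovered from the deposited signal, which is contacts multiplied by 1 factor per bin, and checked to lie within 0.01 of whole numbers. Insulation scores used the deposited signal of the second run, summed over replicates, with 60% of the bin pairs of a square present, which is 1 reading of a minimum of 60% of bins. Measures were tested with limma 3.58.1 (R 4.3.3) on log2 values over all autosomal bins, with a pseudocount of 0.5 contacts for self-contact shares and partner preference, all 4 times in one fit and a variance prior following each bin's contacts. Scripts were tested on simulated data. Alternatives were other squares, flanks, pseudocounts and priors, a contact minimum, thinning, a replicate block and leaving out each library. Contacts are not marked by molecular identifiers, and depth limits single bins.

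Named boundaries are, for each measure and direction, the 3 called members with the largest contrast, or the member with the smallest p where none was called, and those next to the prominence limits. Members, classes and measures were chosen with earlier results of these data known.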

Additional observations from a re-analysis of the deposited data

How the results depend on the processing

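The number of weak shared boundaries was 950 with contacts thinned to the shallowest time, with 785 of the 1054 found again within 1 bin. It was 763 without replicate 1 and 898 without replicate 2, with 584 and 718 of the 1054 found again, and 518 when the same bin was required. Counting the bins of a square instead of its bin pairs for the 60% gave 1090, with 1037 found again. Squares of 5 and 15 bins gave 1514 and 956, with 165 and 218 of the 1054 matched, so the set depends on the square. Of the 1054, 891 and 346 still had a 12 h boundary of prominence 0.2 or more within 1 bin with these squares. The numbers called lower in local coverage (606 to 611), in the outer signal (331 to 347) and in the first run (398 to 455) stayed within 1.5 times when any 1 library was left out, and so did the self-contact calls against the flanks (917 to 937). Among bins with a mean of 500 contacts or more the first-run lower calls numbered 204, but only 386 boundaries were then tested. The share called lower was 52.8%, beside 34.1% of all such bins, and so not below the 44.9% of the main fit. No alternative made a weak shared boundary pass 0.05 in the outer or first-run contrast of 0.25 h and 12 h.

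Calls between times were less stable. Except where given, shares over all bins under these alternatives are not set beside them, so the moves may not be particular to the boundaries. With 1 library left out, coverage calls ranged from 268 to 482 at 0.25 h. Lower calls ranged from 78 to 250 at 1 h and from 34 to 209 at 3 h, and higher calls from 55 to 173 and from 27 to 145. Contacts with other chromosomes only gave 4 at 0.25 h (0.381%, beside 0.146% of all bins). Self-contact calls ranged from 112 to 373 at 0.25 h, 0 to 135 at 1 h and 0 to 54 at 3 h, the highest without a 0.25 h library. A single variance prior gave 169, 0 and 0 at these times and 55 higher coverage calls at 3 h, and a mean of 500 contacts or more gave 12 at 3 h. Partner steps ranged from 26 to 115, with 7 for sides of 5 bins. Alternatives for 1 h and 3 h were chosen after seeing the data. The 44 named contrasts kept their sign in all 542 alternative fits. Of the 517 fits of the 42 called contrasts, 19 fell short of 0.05, as did all 25 of the 2 that were not called.

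Replicate numbers share only a number in the labels. The correlation of same-numbered deviations between times was 0.071 to 0.17 for coverage, 0.015 to 0.13 for self-contact share and near 0 otherwise (lowest -0.012). For coverage and self-contact share each library thus correlated best with its own number. With a replicate block, the self-contact calls at 3 h went from 4 to 2, and the coverage calls at 0.25 h from 487 to 524. The block moved no other number of calls by more than 1.5 times. Depth limits single bins, since the median 0.25 h replicate 2 boundary bin held 551.5 contacts.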
